A study of Mus musculus with 12 samples.

Results

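Gt(ROSA)26Sor (Rosa26), Thumpd3 and Setd5 are 3 neighbouring genes at the Rosa26 locus of mouse chromosome 6, taken here from 39017 genes measured by RNA sequencing in mouse embryonic stem cells (mESCs). Gt(ROSA)26Sor was chosen by its measured level in these libraries, which was high in J1 cells grown in 2i and low elsewhere, so its own levels and fold changes are given as a description without a test. Thumpd3 and Setd5 were taken by position, as the neighbours on either side. All 3 were among the 17885 genes that passed the filter on low counts.

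The experiment asked whether keeping DNA methylation during growth in 2i alters the transcriptome. J1 cells are wild-type mESCs from a male embryo. The 3B3-3l line was derived from DKO cells, which lack functional Dnmt3a and Dnmt3b (Dnmt3a-/-, Dnmt3b-/-), and carries Dnmt3b under the constitutive CAG promoter together with a Flag-tagged Dnmt3l transgene selected with blasticidin. Each line was grown in serum with LIF, a cytokine that sustains self-renewal, or in N2B27 medium with LIF and 2i, the MEK inhibitor PD0325901 and the GSK3 inhibitor CHIR99021. There were 3 libraries in each of the 4 groups, 12 in all. By the labels LIF was at 500 U/ml in serum and 1000 U/ml in 2i, whereas the methods give the higher amount for serum too, so an effect of the LIF dose and of 2i cannot be told apart. J1 cells in serum were kept on inactivated SNLP feeder cells, which were depleted by replating before analysis or transfer to 2i, whereas 3B3-3l cells were kept on gelatin, so the growth surface in serum and the line cannot be told apart. J1 and 3B3-3l also differ in derivation and in the rescue transgenes, and a difference between lines cannot be assigned to DNA methylation alone.

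Gt(ROSA)26Sor is the non-coding transcription unit in which the ROSA26 gene-trap insertion was found. Its broad activity made it a standard site for inserting transgenes in the mouse. Thumpd3 encodes a methyltransferase that modifies guanosine in tRNA together with its activator TRMT112. Setd5 encodes a SET-domain protein that associates with the HDAC3-NCoR corepressor and the PAF1 elongation complex, and loss of a copy impairs neurodevelopment.

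In RefSeq coordinates on GRCm38, Thumpd3 (ENSMUSG00000030264) lies on the plus strand of chromosome 6 from 113046302 to 113068278. Gt(ROSA)26Sor (ENSMUSG00000086429) lies on the minus strand from 113067428 to 113077244. Setd5 (ENSMUSG00000034269) lies on the plus strand from 113077262 to 113153432. Gt(ROSA)26Sor and Setd5 are therefore transcribed away from each other from starts 18 bases apart, and the far end of Gt(ROSA)26Sor overlaps the end of Thumpd3 by 851 bases on the opposite strand. The counting used strand, so reads from the overlap were assigned by their strand. The 3 genes span 107 kb.

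The 2 promoter windows that RefSeq holds for these genes on GRCm38.p6 are shown because the lines differ in their DNA methyltransferases, whose target is the CG dinucleotide. Each runs from 250 bases before to 50 bases after an annotated start, on the plus strand, with every CG in capitals. A CG reads the same on both strands.
Thumpd3, chr6:113046052-113046351: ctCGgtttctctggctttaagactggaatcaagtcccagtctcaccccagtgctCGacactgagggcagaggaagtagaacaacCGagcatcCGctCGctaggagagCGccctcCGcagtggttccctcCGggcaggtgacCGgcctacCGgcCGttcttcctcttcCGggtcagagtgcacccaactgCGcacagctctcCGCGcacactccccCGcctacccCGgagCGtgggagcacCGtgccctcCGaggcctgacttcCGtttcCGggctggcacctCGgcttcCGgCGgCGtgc
Setd5, chr6:113104685-113104984: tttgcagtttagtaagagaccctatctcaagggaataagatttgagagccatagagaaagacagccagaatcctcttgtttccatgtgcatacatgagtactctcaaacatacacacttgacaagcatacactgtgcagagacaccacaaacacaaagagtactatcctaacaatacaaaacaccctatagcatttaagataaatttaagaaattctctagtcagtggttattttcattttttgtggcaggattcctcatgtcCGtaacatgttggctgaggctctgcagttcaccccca
The Thumpd3 window held 26 CG with a GC content of 65.7%, and 16.9% of all 32851 promoter windows held at least as many. The Setd5 window held 1 CG with a GC content of 39.7%, whereas the median window held 7 and 94.6% held at least 1. This Setd5 window is not the start shared with Gt(ROSA)26Sor. It matches the start of the transcript Setd5-011, 27570 bases into the gene. No methylation was measured in these libraries.

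Gt(ROSA)26Sor RNA was low in 3 groups and high in J1 cells in 2i. In CPM, the counts scaled to a common library size, its level was 1.66, 1.40 and 1.31 in the J1 serum libraries and 20.3, 21.6 and 25.02 in the J1 2i libraries. It was 2.06, 1.49 and 1.49 in 3B3-3l serum and 1.67, 1.93 and 1.90 in 3B3-3l 2i. All 3 J1 2i libraries lay above all 9 others, with no overlap, while 3B3-3l serum overlapped both J1 serum and 3B3-3l 2i. The group means in CPM, highest first, were 22.3 ± 2.45 in J1 2i, 1.83 ± 0.140 in 3B3-3l 2i, 1.68 ± 0.331 in 3B3-3l serum and 1.46 ± 0.185 in J1 serum (SD, n = 3). Among the lower 3, each mean differed from the next in the order by less than the SD of 3B3-3l serum.

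The depth behind these values was 890 to 1026 estimated reads per library in J1 2i and 48.2 to 83.2 in the other 9 libraries, well above the 3 reads that a count of 0 allows. As a description of the values that chose the gene, the fitted log2 fold change between 2i and serum was 3.93 ± 0.13 (SE) in J1, a 15.2-fold difference, and 0.13 ± 0.16 in 3B3-3l. In 2i, 3B3-3l was lower than J1 by a log2 difference of -3.60 ± 0.12, and in serum the difference was 0.20 ± 0.17. These are bulk libraries, in which fewer cells expressing a gene and less RNA per cell cannot be told apart.

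**Figure D1:**
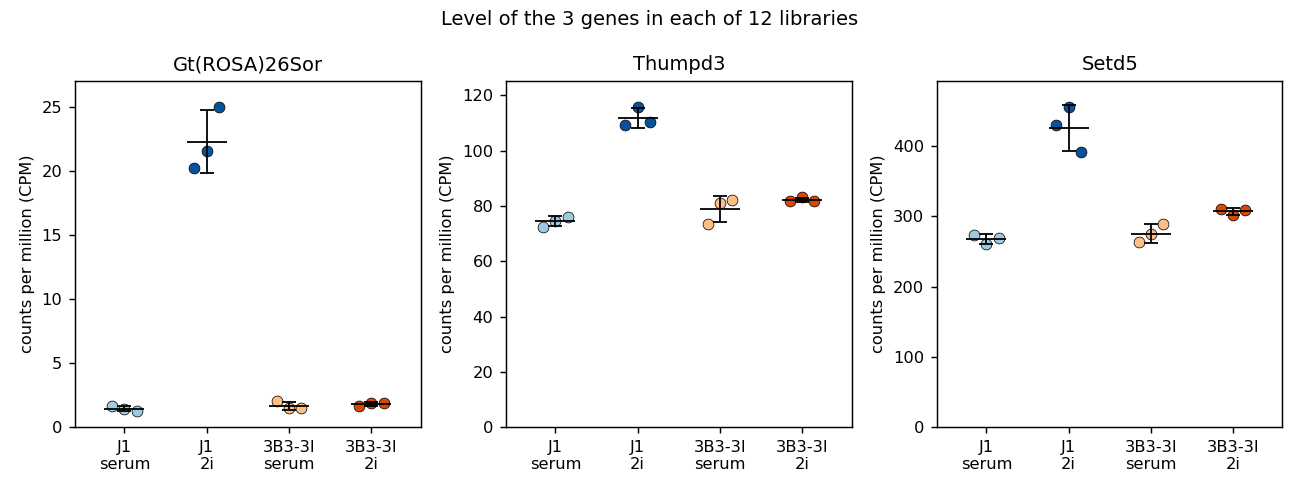
CPM of Gt(ROSA)26Sor, Thumpd3 and Setd5 on linear axes from 0, a panel per gene, with points for the 12 libraries, long bars for the means of the 4 groups and whiskers for the SD. Gt(ROSA)26Sor is 20.3 to 25.02 CPM in J1 2i and 1.31 to 2.06 CPM elsewhere, and the J1 2i libraries are also the highest for both neighbours, at 109 to 116 and 391 to 455 CPM.

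The margin of J1 2i over the next highest group was the widest of any gene tested. Gt(ROSA)26Sor was chosen for being high only in J1 2i, so its margin and rank describe the values that chose it. On the log2(CPM + 0.5) scale Gt(ROSA)26Sor stood 3.29 above its next highest group and ranked 1 of 17885. The next genes were 1700013H16Rik with a margin of 2.55, Dnajc5g with 2.12 and Nkx1-2 with 2.05. A margin of at least 1 was seen in 78 genes, of at least 2 in 5 genes and of at least 3 in 1 gene.

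Most Gt(ROSA)26Sor reads in J1 2i were assigned to the transcripts that stop short of Thumpd3. Of the 4 annotated transcripts, Gt(ROSA)26Sor-002 and -003 share no exonic base with Thumpd3, and Gt(ROSA)26Sor-004 and -001 share 145 exonic bases with its end on the opposite strand. Estimated reads of Gt(ROSA)26Sor-002 were 582, 533 and 740 in J1 2i and 3.68 to 40.8 in the other 9 libraries. Those of Gt(ROSA)26Sor-003 were 253, 310 and 249 in J1 2i and 14.3 to 45.4 elsewhere. For both, J1 2i lay clear of every other library. Gt(ROSA)26Sor-004 had 30.6, 41.6 and 37.3 reads in J1 2i and 14.1 to 25.4 elsewhere. Gt(ROSA)26Sor-001 had 24.3, 55.0 and 0 reads in J1 2i and 0 to 5.36 elsewhere, so it was above all other libraries in 2 of 3.

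By class, the transcripts ending before Thumpd3 summed to 0.920 ± 0.209 CPM in J1 serum and to 20.8 ± 2.85 CPM in J1 2i, a ratio of 22.6. Those overlapping the end of Thumpd3 summed to 0.538 ± 0.139 and 1.46 ± 0.678 CPM (SD, n = 3), a ratio of 2.71. The share of the gene's reads in the class ending before Thumpd3 was 93.3 ± 3.35% in J1 2i, against 62.9 ± 9.99% in J1 serum, 64.5 ± 4.64% in 3B3-3l serum and 70.7 ± 7.79% in 3B3-3l 2i. The lowest J1 2i library, at 89.7%, exceeded the highest of the other 9, at 79.7%. Among the Gt(ROSA)26Sor transcripts holding at least 5% of the gene, the shares of 2 of 3 did not overlap between J1 2i and J1 serum, where 26.7% of all such transcripts did not overlap. Between J1 2i and 3B3-3l 2i the shares of 3 of 3 did not overlap, against 18.2% of all. Shares within a gene sum to a fixed total, so they do not move separately. They are built from the reads that chose the gene, so these counts are a description only. With 3 libraries against 3 an exact two-sided permutation test cannot go below 0.1, so no p is given. Reads were shared out among overlapping transcripts by estimation, and the shares outside J1 2i rest on at most 83.2 reads per library.

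**Figure D2:**
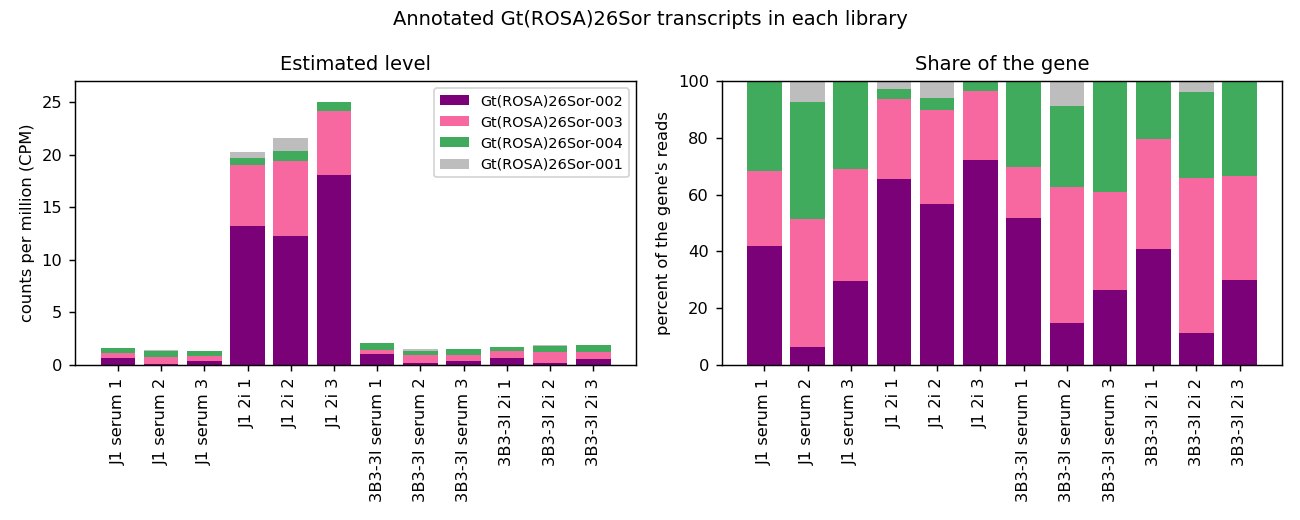
Stacked bars of the 4 annotated Gt(ROSA)26Sor transcripts in each of the 12 libraries, as CPM on the left and as a percentage of the gene's reads on the right. Gt(ROSA)26Sor-002 and -003, which end before Thumpd3, make up 93.3% of the reads as a mean in J1 2i and 62.9% to 70.7% in the other groups.

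Thumpd3, the tRNA methyltransferase gene, rose in 2i in J1. J1 serum libraries held 72.5, 74.7 and 76.2 CPM and J1 2i libraries 109, 116 and 110 CPM. Those of 3B3-3l held 73.6, 81.1 and 82.2 CPM in serum and 81.7, 83.2 and 81.8 CPM in 2i. The J1 2i libraries lay above all 9 others, and the 2 groups of 3B3-3l overlapped. The log2 fold change with 2i was 0.59 ± 0.05 in J1 (SE, adjusted p = 3.59e-08, edgeR quasi-likelihood test), where 33.2% of all genes were called higher and 66.1% in either direction, and 0.06 ± 0.05 in 3B3-3l (edgeR adjusted p = 0.326), where 32.7% were higher and 65.4% called in either direction. The median gene of chromosome 6 stood 0.51 higher in the J1 comparison. The 2i effects of the lines differed by -0.53 ± 0.07 (edgeR interaction test, adjusted p = 3.81e-05), a contrast in which 18.3% of genes were called lower, 16.3% higher and 34.7% in all. In 2i the gene was lower in 3B3-3l than in J1 by a log2 difference of -0.44 ± 0.05 (edgeR adjusted p = 2.96e-06), as were 22.9% of genes, with 45.9% called in either direction. In serum the difference was 0.09 ± 0.05 (edgeR adjusted p = 0.197), and 21.5% of genes were called higher and 38.7% in either direction. One transcript, Thumpd3-001, held 88.3% to 90.2% of the gene's reads as a mean in each group, and its share overlapped between groups in all 4 pairs compared.

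Setd5, the chromatin regulator gene on the other side, rose in 2i in J1 and by less in 3B3-3l. The J1 libraries held 273, 260 and 269 CPM with serum and 430, 455 and 391 CPM with 2i. The 3B3-3l libraries held 263, 274 and 289 CPM with serum and 310, 301 and 309 CPM with 2i. The 3 J1 2i libraries were again above all others, and 3B3-3l 2i also lay above 3B3-3l serum without overlap. The log2 fold change with 2i was 0.67 ± 0.06 in J1 (edgeR adjusted p = 2.77e-08) and 0.16 ± 0.06 in 3B3-3l (edgeR adjusted p = 0.0210). The 3B3-3l call was lost when any of 8 of the 12 libraries was left out, with adjusted p up to 0.0815. The effects of the lines differed by -0.51 ± 0.08 (edgeR interaction test, adjusted p = 1.33e-04). In 2i Setd5 was lower in 3B3-3l by a log2 difference of -0.47 ± 0.06 (edgeR adjusted p = 4.77e-06), and in serum the difference was 0.04 ± 0.06 (edgeR adjusted p = 0.604). The median gene of chromosome 6 differed by -0.43 between lines in 2i, and with libraries scaled on that chromosome the Setd5 and Thumpd3 calls between lines in 2i and between the 2i effects were lost.

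Setd5 transcripts begin at several places, and those at the start beside Gt(ROSA)26Sor kept about the same share of the gene. The 6 transcripts from that start summed in J1 to 125 ± 12.8 CPM with serum and 204 ± 23.0 CPM with 2i, a ratio of 1.64. The 3 transcripts starting about 27.6 kb into the gene, near the promoter window shown above, summed to 136 ± 8.12 and 204 ± 19.1 CPM, a ratio of 1.5. The 5 transcripts from further starts had 6.90 ± 0.891 and 17.4 ± 3.08 CPM (SD, n = 3), a ratio of 2.52. The share of Setd5 reads from the start beside Gt(ROSA)26Sor was 46.6%, 48.0%, 48.4% and 48.5% in J1 serum, J1 2i, 3B3-3l serum and 3B3-3l 2i, all within the spread of the libraries. Of the 4 Setd5 transcripts with at least 5% of the gene, none had a share that did not overlap between J1 2i and J1 serum (0 of 4), where 26.7% of all such transcripts did. Between J1 2i and 3B3-3l 2i the shares of 2 of 4, Setd5-001 and Setd5-006, did not overlap, against 18.2% of all, and between 3B3-3l 2i and 3B3-3l serum that of 1 of 4, Setd5-006, against 25.9%.

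Per length, Gt(ROSA)26Sor stayed the least abundant of the 3 even in J1 2i. In CPM per kb of effective length, its level in J1 2i was 29.1 ± 2.70, against 73.6 for Thumpd3 and 89.6 for Setd5. On the same scale in J1 serum the levels were 2.64 ± 0.376, 50.7 and 56.2. The ratio of Setd5 to Gt(ROSA)26Sor per length was 3.10 ± 0.368 in J1 2i, 21.6 ± 3.41 in J1 serum, 19.3 ± 2.47 in 3B3-3l serum and 20.7 ± 4.35 in 3B3-3l 2i. The ratio of Setd5 to Thumpd3 per length kept between 1.11 and 1.22 as a group mean. The J1 2i range of the ratio of Setd5 to Gt(ROSA)26Sor, 2.74 to 3.48, lay below that of every other library.

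Gt(ROSA)26Sor and Setd5 differed in their J1 fold change more than most genes that start close together on opposite strands. Among 848 pairs of tested genes with starts within 1000 bases of each other and transcribed apart, the J1 2i log2 fold changes within a pair differed by a median of 0.38 and a 95th percentile of 1.52. The pair of Gt(ROSA)26Sor and Setd5 differed by 3.26 and ranked 8th from the widest. The rank describes a pair that was chosen through Gt(ROSA)26Sor.

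The chromosome on which the 3 genes lie was itself higher in J1 2i. Over the 494 chromosome 6 genes averaging 5 CPM or more, the median log2 fold change with 2i in J1 was 0.51. The medians of the 19 other chromosomes lay between -0.03 and 0.14. In 3B3-3l the chromosome 6 median was 0.13, inside the range of the others, -0.01 to 0.27. Only chromosome 8, at 0.27, was higher there. The median for 3B3-3l against J1 was -0.43 in 2i, outside the -0.24 to 0.09 of the others, and -0.01 in serum, inside their -0.31 to 0.12. Chromosome 6 took 5.82% to 5.84% of reads in the 3 J1 2i libraries and 4.36% to 4.51% in the other 9. The higher level in J1 2i was spread along the chromosome. In 10-Mb steps of distance from Gt(ROSA)26Sor, the 9 steps with at least 20 genes had J1 2i medians from 0.33 to 0.55. RNA was the only measurement, so more copies of chromosome 6 and more transcription from it cannot be told apart, and neither was tested.

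**Figure D3:**
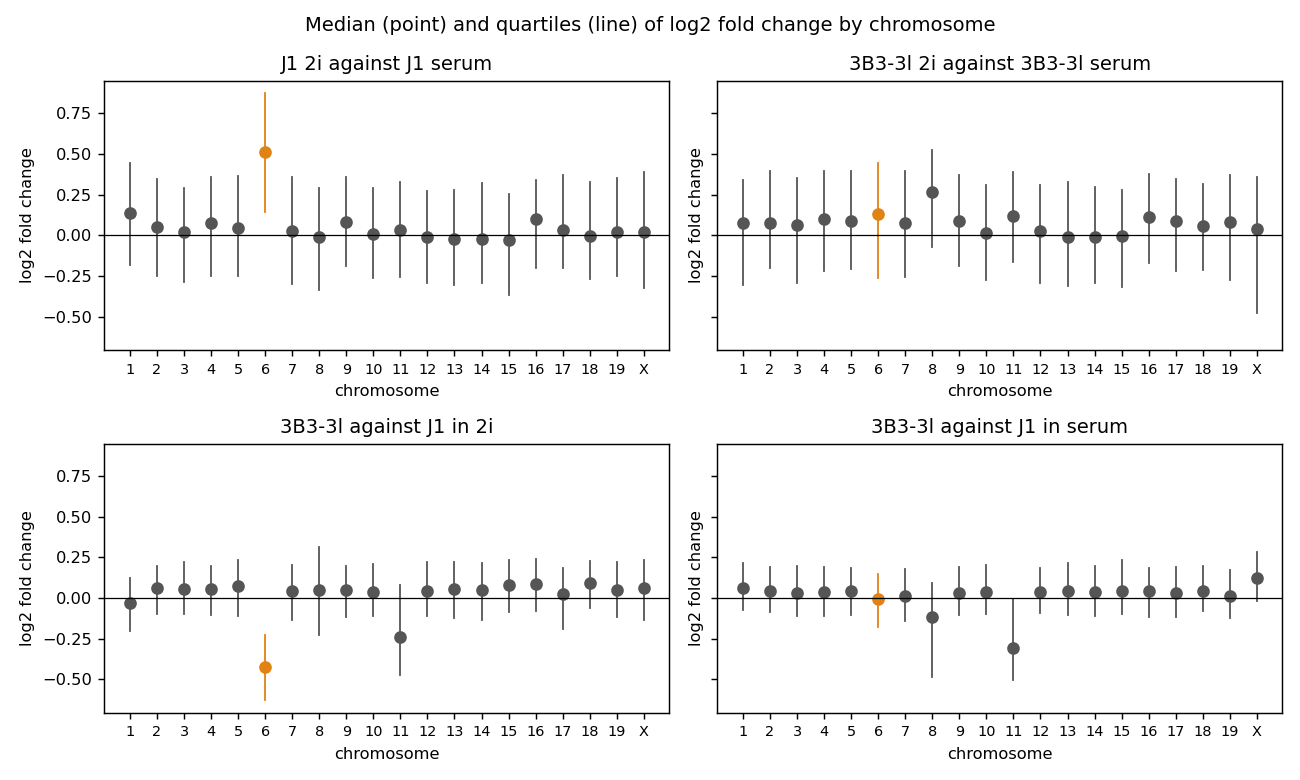
Median (point) and quartiles (line) of the log2 fold changes of the genes of each chromosome, a panel for each of 4 contrasts, with chromosome 6 in orange. Chromosome 6 stands apart at 0.51 for 2i against serum in J1 and at -0.43 for 3B3-3l against J1 in 2i.

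Setd5 and Thumpd3 lay near the middle of chromosome 6 and Gt(ROSA)26Sor at its top. By the J1 2i log2 fold change, Setd5 ranked 190 and Thumpd3 ranked 211 of 494 chromosome 6 genes, 0.16 and 0.07 above the median. Gt(ROSA)26Sor ranked 1, at 3.42 above the median, and the next genes were Vax2 at 3.76 and Wnt5b at 3.68 on the log2 fold change. For Gt(ROSA)26Sor this rank describes the values that chose it, whereas Setd5 and Thumpd3 were taken by position. When the libraries were scaled on chromosome 6 genes alone, a choice made after the data were seen, the median of all genes shifted by -0.43 in J1 2i against serum and by 0.42 in 3B3-3l against J1 in 2i. On that scale the J1 2i effect was 0.24 for Setd5 (edgeR adjusted p = 0.00168) and 0.16 for Thumpd3 (edgeR adjusted p = 0.0130). The difference between lines in 2i was -0.056 for Setd5 (edgeR adjusted p = 0.418) and -0.027 for Thumpd3 (edgeR adjusted p = 0.668), and neither was called. The same scaling left Gt(ROSA)26Sor at 3.50 in J1 and at -3.18 between lines in 2i.

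**Figure D4:**
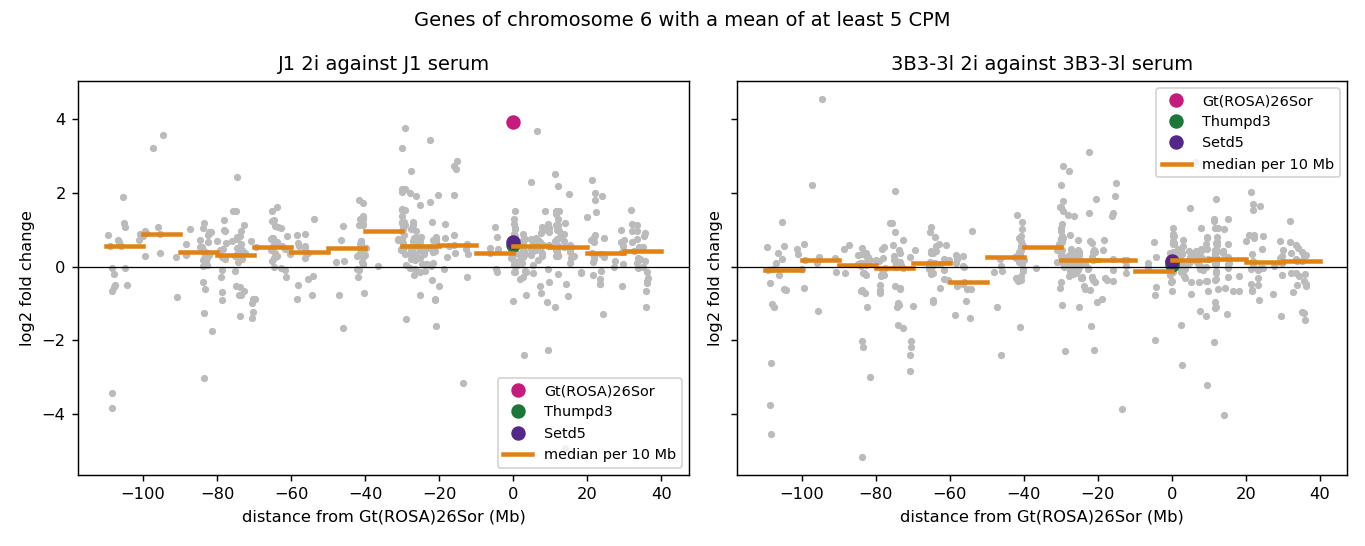
Log2 fold change of 2i against serum in J1 (left) and 3B3-3l (right) for chromosome 6 genes by distance from Gt(ROSA)26Sor in Mb, 1 point per gene, with orange medians in 10-Mb steps. In J1 the medians stay above 0 along the chromosome, Setd5 and Thumpd3 lie near them at 0.67 and 0.59, and Gt(ROSA)26Sor is the highest gene at 3.93.

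Within 1 Mb of Gt(ROSA)26Sor the other genes moved in both directions. RefSeq lists 60 genes there, of which 39 were matched by name to a measured gene. Of these, 34 were tested, 31 besides the 3 members, and 5 were too low to test. The other 21 had no match by name, so whether they were measured is not known. In J1, 17 of the 31 rose with 2i, 7 fell and 7 were not called, against 33.2% higher and 32.9% lower over all genes. Over the 766 tested chromosome 6 genes other than the members, these 31 among them, 58.4% were higher and 20.5% lower. In 3B3-3l, 13 rose, 10 fell and 8 were not called, with 32.7% of all genes called in each direction. Over those 766 genes 35.2% were higher and 33.4% lower. In 2i, 22 of 31 were lower and 3 higher in 3B3-3l than in J1, against 22.9% and 23.0% over all genes. The shares over those 766 genes were 62.5% and 6.79%. In serum 5 were higher and 12 lower, against 21.5% and 17.2% over all genes and 21.9% and 17.2% over those 766. The 2i effect was called lower in 3B3-3l than in J1 for 12 and higher for 2. Over all genes 18.3% were lower and 16.3% higher, and over those 766 genes 55.0% and 4.7%. The median log2 fold change with 2i in J1 was 0.33 over the 31 genes and 0.44 over those 766, neither set having a 5 CPM minimum. Of the 31, 11 exceeded 0.51, the median of the 494 chromosome 6 genes that had that minimum.

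The nearest genes tested and matched by name on each side differed in direction, with distances given from Gt(ROSA)26Sor to the nearer end. Before Thumpd3, Srgap3, a GTPase-activating protein of neurons, lay 120 kb away and fell in J1 from 13.9 ± 0.997 to 7.31 ± 0.574 CPM (SD, n = 3). Its log2 fold change there was -0.93 ± 0.07 (SE, edgeR adjusted p = 1.90e-08). Rad18, a ubiquitin ligase of DNA damage tolerance, lay 371 kb away and rose in J1 by 0.37 and changed by -0.24 in 3B3-3l on the log2 scale. Gm5578, 459 kb away, had a log2 fold change of 0.23 in J1 (edgeR adjusted p = 0.0504) and rose by 0.37 in 3B3-3l. After Setd5, Lhfpl4, a protein of inhibitory synapses, fell from 3.29 ± 0.503 to 1.2 ± 0.200 CPM in J1, by -1.44 ± 0.16 (edgeR adjusted p = 9.73e-07), and by -1.35 in 3B3-3l. Mtmr14, a phosphoinositide phosphatase, changed by -0.15 in J1 and -0.38 in 3B3-3l. Cpne9, a copine, had 0.04 in J1, not called, and changed by -0.65 in 3B3-3l. Between Srgap3 and Lhfpl4, the 3 members were the only tested genes matched by name. The level of each was higher in J1 2i than in J1 serum.

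The other genes named by the size of their change, each reaching 5 CPM in some group, lay 230 to 667 kb past Gt(ROSA)26Sor. Il17rc, an interleukin-17 receptor subunit, rose from 6.86 ± 0.179 to 19.6 ± 1.88 CPM in J1. The log2 fold change was 1.51 ± 0.08 in J1 (SE, edgeR adjusted p = 1.23e-10) and 0.88 in 3B3-3l, also called. Ttll3, a tubulin glycylase, rose by 1.29 in J1 and 0.70 in 3B3-3l, and Ogg1, the glycosylase that removes oxidised guanine, by 1.16 and 1.06. Jagn1, a protein of the secretory pathway in neutrophils, rose by 0.80 and 0.60. Creld1, a cysteine-rich EGF-like protein of heart development, had a pattern close to that of Thumpd3 and Setd5, at 0.78 in J1 and -0.01 in 3B3-3l, not called, with -0.96 between lines in 2i. Atp2b2, a plasma membrane calcium pump, changed by -1.86 in 3B3-3l and had -0.39 in J1, not called. Sec13, a component of COPII coats and nuclear pores, had 0.03 and 0.05 with 2i, not called, and was lower in 3B3-3l by -0.37 in 2i and -0.39 in serum. Brpf1, a scaffold of histone acetyltransferases, rose by 0.17 and 0.22.

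**Figure D5:**
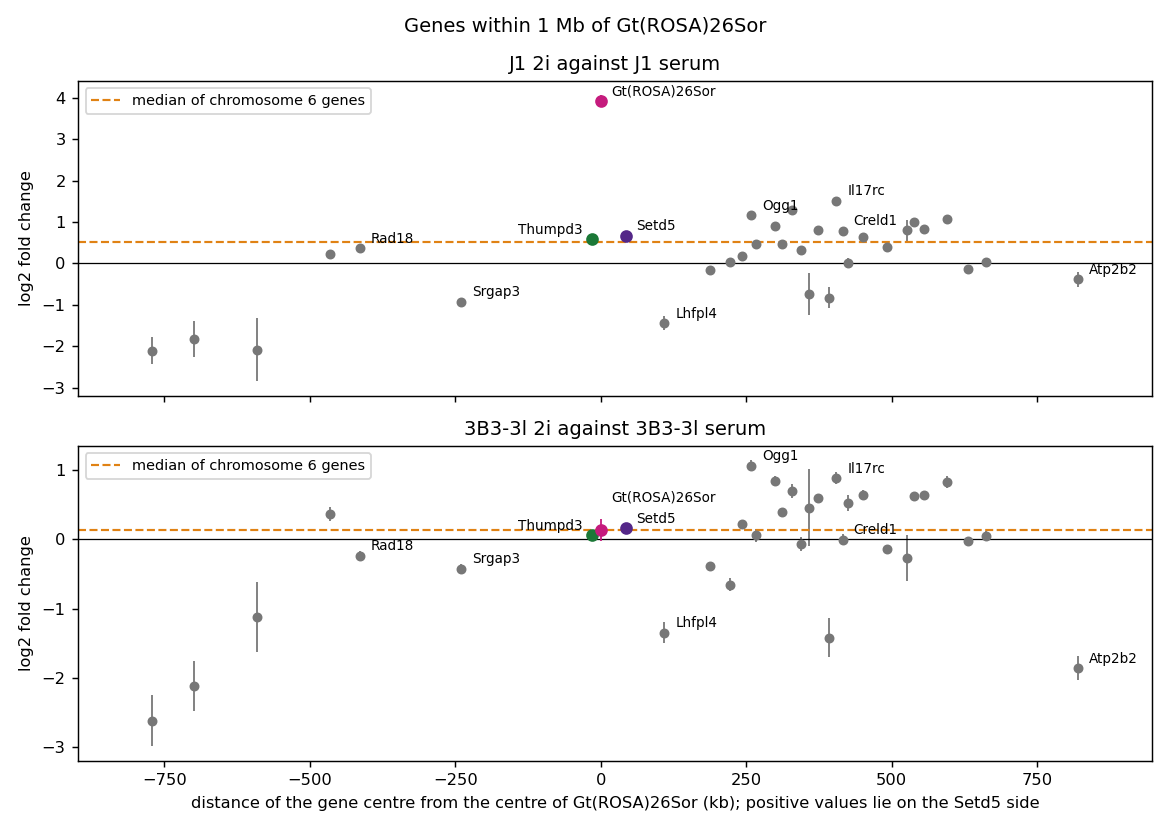
Log2 fold changes of 2i against serum in J1 and 3B3-3l for the tested genes within 1 Mb of Gt(ROSA)26Sor, by distance between gene centres in kb, with bars for the SE and dashed lines for the chromosome 6 median. Gt(ROSA)26Sor stands at 3.93 in J1 and 0.13 in 3B3-3l, and the 31 other genes lie on both sides of 0.

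The genes whose pattern over the 12 libraries was most like that of Gt(ROSA)26Sor shared its high level in J1 2i. Likeness was measured as Pearson r of log2(CPM + 0.5), over libraries that share line and medium within a group, so r mostly describes J1 2i against the other 9. The 8 highest of 11554 genes were Stambp (0.987), Pdia4 (0.986), 1700013H16Rik (0.984), Adck2 (0.984), Dph5 (0.981), Dnajc5g (0.981), Tes (0.980) and Sec61a1 (0.980). Of these, Stambp, Pdia4, Adck2, Tes and Sec61a1 lie on chromosome 6. Pdia4, an endoplasmic reticulum disulfide isomerase, was at 158 ± 4.53 CPM in J1 serum, 273 ± 11.6 in J1 2i, 160 ± 1.92 in 3B3-3l serum and 175 ± 7.61 in 3B3-3l 2i (SD, n = 3). Stambp, a deubiquitinase, was at 4.34 ± 0.140, 10.1 ± 0.392, 4.05 ± 0.302 and 4.32 ± 0.289 CPM in the same order. By the same measure Thumpd3 ranked 51 with r of 0.955 and Setd5 ranked 91 with r of 0.940. By Spearman correlation 1 of the 8 genes stayed among the 8 highest and 1 among the 100 highest.

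The partners of SETD5 and THUMPD3 moved in both directions with 2i. Of 13 genes, 12 for SETD5 partners and the Setd5 paralog Mll5, 6 rose and 4 fell in J1 with 2i, with a median log2 fold change of 0.10, against 33.2% and 32.9% of all genes, and 5 rose and 2 fell in 3B3-3l, against 32.7% each way. Hdac3, the deacetylase of the corepressor, had 0.09 in J1, not called, and rose by 0.30 in 3B3-3l. Ctr9 of the PAF1 complex changed by -0.29 in J1 and -0.12 in 3B3-3l. Mll5 (Kmt2e) rose from 30.1 ± 1.90 to 48.9 ± 8.96 CPM in J1, by 0.70 ± 0.10 (edgeR adjusted p = 1.79e-05), and had 0.09 in 3B3-3l (edgeR adjusted p = 0.435). Of the 8 genes for TRMT112 and its methyltransferases, Thumpd3 included, 3 rose and 2 fell in J1, against 33.2% and 32.9% of all genes, and 3 rose and 3 fell in 3B3-3l, against 32.7% each way, so these counts lay near the background. Trmt112 itself rose by 0.40 in J1 and 0.68 in 3B3-3l, and Trmt11 changed by -0.58 and -0.43. In 2i, 5 of these 13 genes were higher and 1 lower in 3B3-3l than in J1, against 23.0% and 22.9% of all genes, and 1 of the 8 TRMT112 genes was higher and 1, Thumpd3, lower.

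Genes at other loci used for transgenes also moved in both directions. Of 6 such genes, 1 rose and 4 fell in J1 with 2i, with a median log2 fold change of -0.15, against 33.2% and 32.9% of all genes. In 3B3-3l 1 rose and 2 fell, with a median of -0.12, against 32.7% of all genes each way. Hprt, the purine salvage enzyme gene, had 135 ± 10.1 CPM in serum and 134 ± 11.6 CPM in 2i in J1, and was called in none of the 5 contrasts (0 of 5). Ppp1r12c, which holds the human AAVS1 site, changed by -0.15 and -0.25. Drg1 and Eif4enif1, which flank the Hipp11 site, had 0.18 and -0.14 in J1, both called. Col1a1, a fibroblast collagen, fell from 28.1 ± 0.211 to 3.28 ± 0.233 CPM in J1, by -3.10 ± 0.09, and by -3.94 in 3B3-3l. In 2i, Drg1 and Eif4enif1 were lower in 3B3-3l than in J1, by -0.31 and -0.50, and were also lower in serum, by -0.51 and -0.56. Both lie on chromosome 11, whose median for 3B3-3l against J1 was -0.24 in 2i and -0.31 in serum.

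Libraries held 37050652 to 44515395 estimated reads. All 5 embryonic stem cell markers were detected in every group, with a sum of 3070 to 4260 CPM per library. The sum of the 8 fibroblast markers was 59.5 to 61.1 CPM in J1 serum, 5.85 to 6.99 in J1 2i, 72.0 to 84.9 in 3B3-3l serum and 8.38 to 8.88 in 3B3-3l 2i. All 5 that were tested were lower in 2i in both lines, and Lum, Dcn and Postn stayed at or below 0.169 CPM as group means. This sum was lowest in the group where Gt(ROSA)26Sor was highest, and it was at least as high in 3B3-3l serum, kept on gelatin, as in J1 serum. Its part in the results was not tested. As a check of the labels, Dnmt3b was at 44.1 CPM in J1 2i and 928 CPM in 3B3-3l 2i, and Dnmt3a in 2i was at 41.5 CPM in J1 and 4.67 CPM in 3B3-3l.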

How the data were processed

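PolyA RNA from 12 mESC cultures was made into stranded libraries and sequenced in 2 pools, whose members are not given, so no pool effect was assessed. The authors quantified reads with Sailfish against RefSeq models, as their methods state, but the identifiers in the deposited tables are those of Ensembl. The deposited gene table holds estimated counts from tximport, and the deposited transcript tables hold TPM values and estimated read counts. The submitters' processing notes name mm10. Estimated counts were rounded and tested with edgeR 4.0.16 (TMM, quasi-likelihood, 1 coefficient per group, 5 contrasts) in R 4.3.3, with Benjamini-Hochberg adjustment over 17885 genes and calls at 0.05. CPM used TMM library sizes. The methods give 3 biological replicates per cell line but not how the cultures were separated, so p-values measure the spread between these samples. In simulated data, 100% of the 100 genes changed 4-fold and 0.0752% of unchanged genes were called. The changed genes there were few and well covered, and every gene had the same spread. The simulation therefore does not cover many changed genes, a shifted chromosome or low counts. Coordinates and promoters came from RefSeq (GRCm38.p6), matched by symbol. Transcript structures came from GENCODE on NCBIM37, as distances only. DESeq2 1.42.0, filters, scalings, a replicate block and left-out libraries were the alternatives. Named genes were the 3 members, the 3 nearest tested genes on each side, the 2 highest and 2 lowest called genes within 1 Mb per contrast, the 8 genes of most similar pattern and the gene lists. The members and lists were chosen with earlier results of these data known. Gt(ROSA)26Sor had no promoter entry. The values of 1 listed gene are not reported here.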

Additional observations from a re-analysis of the deposited data

Results flagged for a closer look

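The 2i effects of the 2 lines differed by the edgeR interaction test for 21 of 42 genes, which were Setd5, Thumpd3, the named genes within 1 Mb and the gene lists. The genes most like Gt(ROSA)26Sor were left out because their pattern chose them. Jagn1, Srgap3, Atp2b2 and Creld1 were named as called genes of this same contrast, though Srgap3 was also named by position. Others within 1 Mb were named as called genes of the other contrasts. Each difference is given as the log2 effect in 3B3-3l minus that in J1. Among the members the difference was -0.51 for Setd5 and -0.53 for Thumpd3. Within 1 Mb it was -0.60 for Rad18, 0.50 for Srgap3, -0.23 for Mtmr14, -0.69 for Cpne9, -0.60 for Ttll3, -0.63 for Il17rc, -1.47 for Atp2b2, -0.79 for Creld1 and -0.20 for Jagn1. Over all genes 34.7% were called here, but part of the 42 was named through such calls, so the count cannot be set against that share. Among these named genes within 1 Mb, Srgap3 was the exception in sign, since it fell further in J1 than in 3B3-3l. Of all 31 genes tested within 1 Mb besides the members, 2 were called higher and 12 lower.

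Among the SETD5 partners and Mll5 the difference was 0.20 for Hdac3, 0.66 for Gps2, 0.18 for Ctr9, 0.26 for Leo1 and -0.61 for Mll5. Among TRMT112 and its partners it was -0.28 for Alkbh8 and 0.30 for N6amt1, beside Thumpd3. At the other transgene loci it was 0.20 for Drg1, -0.84 for Col1a1 and 0.23 for Actb. The median of this difference over chromosome 6 was -0.43, against -0.10 to 0.26 for the other chromosomes, so the members and most of the genes within 1 Mb lay on the same side of 0 as their chromosome. With libraries scaled on chromosome 6 genes the differences of Setd5 and Thumpd3 were not called.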

How the results depend on the processing

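Setd5 and Thumpd3 had 6 called changes with 2i in J1, between lines in 2i and between the 2i effects. These kept their direction and call in all 118 checks other than the scaling on chromosome 6. A check is 1 of the 6 calls under 1 alternative setting, and many settings left out 1 library. Of 467 alternatives over all results, 441 were labelled the same and 0 reversed. Gene counts and ranks could not be labelled reversed, and differences of shares only where the main difference exceeded its spread. Small share differences between J1 2i and J1 serum did change sign. That of Setd5 from the shared start was 1.41 percentage points and went as low as -0.651. That of Thumpd3-001 was 0.724 and went as low as -0.125. With transcript lengths as offsets, Gt(ROSA)26Sor was at log2 values of 3.45 in J1, -3.21 between lines in 2i and -3.41 for the difference of effects, and Setd5 in 3B3-3l had 0.13, no longer called. With libraries scaled on chromosome 6 genes, chosen after the data were seen, Gt(ROSA)26Sor had 3.50, -3.18 and -3.40. Under that scaling Setd5 lost its calls in 3B3-3l (0.12), between lines in 2i (-0.056) and for the difference (-0.12), Thumpd3 lost its calls between lines in 2i (-0.027) and for the difference (-0.13), and the genes called within 1 Mb in 2i between lines fell from 25 to 14. With at least 10 counts in every library Setd5 in 3B3-3l had 0.10, not called. Leaving out 1 library gave Setd5 in 3B3-3l 0.13 to 0.19, with the call lost without 3B3-3l 2i replicate 1, 2 or 3, 3B3-3l serum replicate 1 or 2, or J1 serum replicate 1, 2 or 3. It gave Thumpd3 between lines in serum 0.056 to 0.13, called only without 3B3-3l serum replicate 1. Within 500 kb, 11 genes were called between lines in serum instead of 17 within 1 Mb. By TPM, the Thumpd3-001 share differed between J1 2i and J1 serum by 3.05 percentage points instead of 0.724. By Spearman correlation 1 of the 8 most similar genes stayed among the 8. Beyond the smaller window, the cause was not tested.

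No pairing of samples by replicate number was seen. Same-numbered libraries had correlations of -0.118 to 0.062 in their deviations from group means over 18 pairs. Differently numbered libraries had -0.176 to 0.174. With 3 libraries per group these correlations cannot show whether same-numbered cultures were handled together. With the replicate number as a block, Setd5 in J1 was at 0.67 and Thumpd3 at 0.59, the differences of effects were -0.51 and -0.53, Setd5 in 3B3-3l was at 0.16, and the genes called within 1 Mb were 24, 22, 26, 18 and 14 over the 5 contrasts, against 24, 23, 25, 17 and 14 without it. The block changed no call of Setd5 or Thumpd3.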
